A study of Mus musculus with 19 samples.

Results

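The genes described here are 40 heat shock and endoplasmic reticulum (ER) folding genes in mouse CD4+ T cells, 17 that act mainly in the cytosol or in mitochondria and 23 that act in the ER or signal from it. They were taken by name, not by their values in these arrays. Of the 40, 38 had a probe set annotated with only their symbol, and 37 reached log2 4 on at least 2 arrays, out of 9928 genes that did so and 18193 with a probe set. The 37 comprised 14 cytosolic or mitochondrial and all 23 ER members. Hsp90ab1 and Hsf1 were not analysed here because the annotation names no probe set for either symbol alone, and Hsf2 lay between 2.21 and 2.37 on all arrays, at the floor of the scale.

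Heat shock proteins bind unfolded proteins. HSP70 proteins and their J-domain partners hold and release clients in cycles of ATP hydrolysis, HSP90 proteins finish the folding of kinases and receptors, and the HSP60 and HSP10 pair folds proteins inside mitochondria. Proteins that enter the ER meet a separate set: BiP, encoded by Hspa5, the calnexin and calreticulin cycle for glycoproteins, and disulphide isomerases. When unfolded proteins gather in the ER, the sensors IRE1 (Ern1), ATF6 and PERK raise the transcription of these folding genes, IRE1 through splicing of Xbp1 mRNA. Activated lymphocytes raise their synthesis of surface and secreted proteins, and plasma cells carry the best known lymphocyte form of this response.

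The study sorted CD4+ T cells of C57BL/6J mice in 6 groups. OT-II cells, whose transgenic receptor recognises an ovalbumin peptide, carried 1 Bcl6 allele with a YFP reporter (Bcl6yfp/+). They were transferred into recipients that were given NP-OVA in CFA, and follicular helper (Tfh) cells, sorted as CXCR5hi PD-1hi, were taken from draining lymph nodes. Of these, 4 samples were YFP-positive and 4 YFP-negative, 3 samples were CXCR5lo PD-1lo cells, and CXCR5hi PD-1hi cells not split by YFP came from Bcl6yfp/+ (3 samples) and Bcl6+/+ (3 samples) cells. The labels' transfer text names only Bcl6yfp/+ cells, so the origin of the Bcl6+/+ cells is not given in the sources used here. YFP-positive replicate 4, YFP-negative replicates 1 and 4 and Bcl6+/+ replicates 1 and 2 were taken at day 10 and the other cells of immunized mice at day 7. Naive cells (2 samples, CD44lo CD62Lhi) came from the spleen of unimmunized mice, so that tissue and immunization cannot be told apart in any comparison with them.

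Each probe set has a log2 expression value, and all levels and differences below are on that scale. The defining T cell genes were present: the 9 measured T cell identity genes passed the filter, and Cd3e lay between 13.86 and 14.55 on all 19 arrays. The sort was visible in Cxcr5, which was at 2.26 and 2.39 on the naive arrays, at 9.45 to 10.89 on the CXCR5lo PD-1lo arrays and at 12.92 to 14.05 on the others. The deposited columns fell into 7 sets with shared value distributions: sets 1, 2 and 3 held the CXCR5lo PD-1lo and both YFP-sorted arrays of replicates 1, 2 and 3, replicates 4 formed set 4 with naive replicate 1, Bcl6yfp/+ replicate 1 shared set 5 with naive replicate 2, set 6 held replicates 2 and 3 of both genotypes, and Bcl6+/+ replicate 1 stood alone in set 7. The 4 arrays of set 6 stood apart by their likeness: pairs of them differed by 0.144 to 0.194 on average over the kept genes, whatever the genotype, and the next closest pair of arrays by 0.285. For the Bcl6yfp/+, Bcl6+/+ and second naive samples the labels name 2 RNA extraction kits without saying which was used, and 1 kit for the others.

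Promoter windows of the members were searched for elements by which the unfolded protein response and the heat shock response are known to act. Each element was searched only in the written form given below, and a minority of the members matched. Other spellings were not searched, so a window without a match may still hold such an element. The regulatory letters found are shown here. RefSeq promoter windows of build GRCm38.p6, cut to the 250 bases before the annotated start, were held for 31 of the 40 members, 12 cytosolic or mitochondrial and 19 ER genes. The ER stress element, written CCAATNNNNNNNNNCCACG and searched on both strands, is the textbook site of ATF6 with the CCAAT-binding factor NF-Y. It was present in 7 of the 19 ER members (36.8%), in 0 of the 12 cytosolic or mitochondrial members and in 35 of all 27025 genes with a promoter (0.13%). The elements of the 7 genes are printed below with their fixed bases in capitals, each read on the strand on which it matches.
Hspa5 (chr2:34772025-34772043): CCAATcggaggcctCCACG
Hsp90b1 (chr10:86705638-86705656): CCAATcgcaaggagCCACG
Hsp90b1 (chr10:86705533-86705551): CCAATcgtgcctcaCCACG
Calr (chr8:84847075-84847093): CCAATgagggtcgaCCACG
Canx (chr11:50325800-50325818): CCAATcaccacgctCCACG
Pdia6 (chr12:17266491-17266509): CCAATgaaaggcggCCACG
Dnajc3 (chr14:118937827-118937845): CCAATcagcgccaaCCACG
Creld2 (chr15:88819520-88819538): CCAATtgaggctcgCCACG

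The elements began 65 bases before the start of Hspa5 and up to 212 bases before that of Hsp90b1, which alone held 2. Hspa5 also held the unfolded protein response element TGACGTG, found in 1 of 19 ER members (5.26%) and in 1.85% of all genes with a promoter. The shorter CCAAT box, which is also the first part of the ER stress element, was in 15 of 19 ER members (78.9%), in 7 of 12 cytosolic or mitochondrial members (58.3%) and in 37.5% of all. The windows of Hspa5 and Pdia6, both on the plus strand, are printed whole, with the ER stress element and, in Hspa5, the unfolded protein response element in capitals.
Hspa5 (chr2:34771840-34772089): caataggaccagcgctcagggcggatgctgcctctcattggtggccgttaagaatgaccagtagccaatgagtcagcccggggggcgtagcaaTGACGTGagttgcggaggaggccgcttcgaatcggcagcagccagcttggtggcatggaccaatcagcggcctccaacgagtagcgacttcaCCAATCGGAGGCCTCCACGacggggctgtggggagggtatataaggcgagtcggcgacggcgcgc
Pdia6 (chr12:17266339-17266588): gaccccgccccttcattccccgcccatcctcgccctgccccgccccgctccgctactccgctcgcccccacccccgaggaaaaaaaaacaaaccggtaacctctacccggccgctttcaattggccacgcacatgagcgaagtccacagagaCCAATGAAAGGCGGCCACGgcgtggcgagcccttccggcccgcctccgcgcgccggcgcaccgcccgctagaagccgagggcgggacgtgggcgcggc

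The heat shock element, the site of the heat shock factor HSF1, was searched as GAANNTTCNNGAA on both strands. It was in 2 of the 12 cytosolic or mitochondrial members (16.7%), in 0 of 19 ER members and in 0.514% of all genes with a promoter. The 2 genes, Hspd1 (HSP60) and Hspe1 (HSP10, its lid), are neighbours on chromosome 1 that are read away from each other, and both windows reach the same pair of overlapping elements, printed in capitals in the Hspe1 window on the plus strand. These matches describe letters in the windows and were not tested for binding.
Hspe1 (chr1:55087898-55088147): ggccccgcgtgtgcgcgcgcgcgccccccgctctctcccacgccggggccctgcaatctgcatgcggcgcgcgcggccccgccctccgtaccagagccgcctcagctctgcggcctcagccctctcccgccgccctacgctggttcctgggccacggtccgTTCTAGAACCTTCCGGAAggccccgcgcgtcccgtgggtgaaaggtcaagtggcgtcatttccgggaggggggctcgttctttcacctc

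Across the 6 groups, 12 of the 37 members differed in level (moderated F test in limma, adjusted p under 0.05), where 26.7% of all genes did. Of these, 9 were ER members (Atf6, Hspa5, Sdf2l1, Hspa13, Xbp1, Creld2, Pdia6, Dnajb9 and Ern1) and 3 were cytosolic (Dnajb4, Stip1 and Hsph1). The count fell to 6 without naive replicate 1 and to 7 without naive replicate 2, and rose to 21 without Bcl6yfp/+ replicate 1. How the share of all genes moved in these fits is not given here. The 9 ER members had their lowest group mean in naive cells, and Dnajb4 had lower means in every Tfh group than in CXCR5lo PD-1lo and naive cells. The labels do not say that the replicates came from separate animals, so p-values cover only how much these samples varied, perhaps for technical reasons.

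ER genes were higher in cells of immunized mice than in naive cells. All 23 ER members had a higher mean than naive in each of 4 comparisons, which share the 2 naive arrays: YFP-positive Tfh, YFP-negative Tfh, CXCR5lo PD-1lo cells, and the 6 arrays of both Bcl6 genotypes together, called unsplit Tfh below. Of all 9928 genes, 7033, 7266, 7948 and 7484 also had a higher mean than naive in these comparisons. In YFP-positive Tfh cells 10 of 23 ER members rose, where 22.4% of all genes rose and 6.44% fell. The count of ER members that rose was 10 in YFP-negative Tfh cells (16.5% and 4.62% of all genes), 8 in CXCR5lo PD-1lo cells (10.3% and 1.57%) and 16 in unsplit Tfh cells (28.4% and 5.9%), and 0 fell in any of the 4. The median ER difference was 0.93, 0.85, 0.93 and 1.02 in that order, beside medians over all genes of 0.39, 0.38, 0.46 and 0.50.

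Both naive arrays were below all 17 arrays of immunized mice for 8 of the 23 ER members and 3 of the 14 cytosolic or mitochondrial members, where 17.3% of all genes had that order. Leaving out Bcl6yfp/+ replicate 1, which was low for many ER genes, the counts were 13 of 23 and 6 of 14, beside 24.9% of all genes. The 8 ER members were Atf6, Creld2, Herpud1, Hspa5, Hspa13, Pdia6, Sdf2l1 and Xbp1.

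Among the sensors and transcription factors, Atf6, the membrane-bound factor that is cut in the Golgi to release its activator, had the largest difference from naive of the ER members in all 4 comparisons. It was at 5.43 and 6.83 on the naive arrays, at 8.82, 9.55 and 10.98 on the CXCR5lo PD-1lo arrays, at 10.43, 10.79, 10.88 and 11.14 in YFP-negative and at 10.64, 11.04, 11.15 and 11.68 in YFP-positive Tfh cells, at 9.77, 11.22 and 11.28 in Bcl6yfp/+ and at 10.60, 11.28 and 11.35 in Bcl6+/+ Tfh cells. The naive arrays lay apart from all others, and the CXCR5lo PD-1lo arrays were spread between them and the Tfh arrays. The log2 difference from naive was 4.99 (SE 0.55, adjusted p 4e-06) in YFP-positive Tfh, 4.68 in YFP-negative Tfh, 3.65 in CXCR5lo PD-1lo cells and 4.78 in unsplit Tfh cells, and it was called without each array in turn in all 4. The other 2 probe sets of Atf6 differed from naive in the same direction, by 7.47 and 5.52 in YFP-positive Tfh cells.

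Xbp1 encodes the factor that IRE1 activates by splicing, and these probe sets do not separate its spliced from its unspliced form. It was at 9.08 and 8.74 on the naive arrays, at 10.14, 10.67 and 11.15 on the CXCR5lo PD-1lo arrays, at 10.71, 10.73, 11 and 11.30 in YFP-negative and at 10.41, 10.70, 10.84 and 11.33 in YFP-positive Tfh cells, at 9.73, 11.28 and 11.43 in Bcl6yfp/+ and at 11.23, 11.28 and 11.38 in Bcl6+/+ Tfh cells. No array of an immunized mouse reached down to the naive values, and Bcl6yfp/+ replicate 1 came closest. Xbp1 rose by 1.91 (SE 0.40, adjusted p 0.0021), 2.03, 1.75 and 2.15 in the 4 comparisons in the order above, and its 4 probe sets all rose in YFP-positive Tfh cells, by 1.52 to 2.08. Ern1, which encodes IRE1, was at 6.60 and 7.46 in naive cells and rose in the 3 Tfh comparisons, by 1.66 (SE 0.54, adjusted p 0.029), 2.29 and 2.13. In CXCR5lo PD-1lo cells, at 7.13, 7.74 and 8.97, its groups overlapped naive and the difference of 0.91 was not called. Ddit3, the factor CHOP that PERK signalling induces, was not called in any comparison and had means of 10.28 in naive and 10.59 to 11.20 in the other groups. Bcl6yfp/+ replicate 1, at 9.57, was below both naive arrays, at 9.89 and 10.67.

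**Figure D1:**
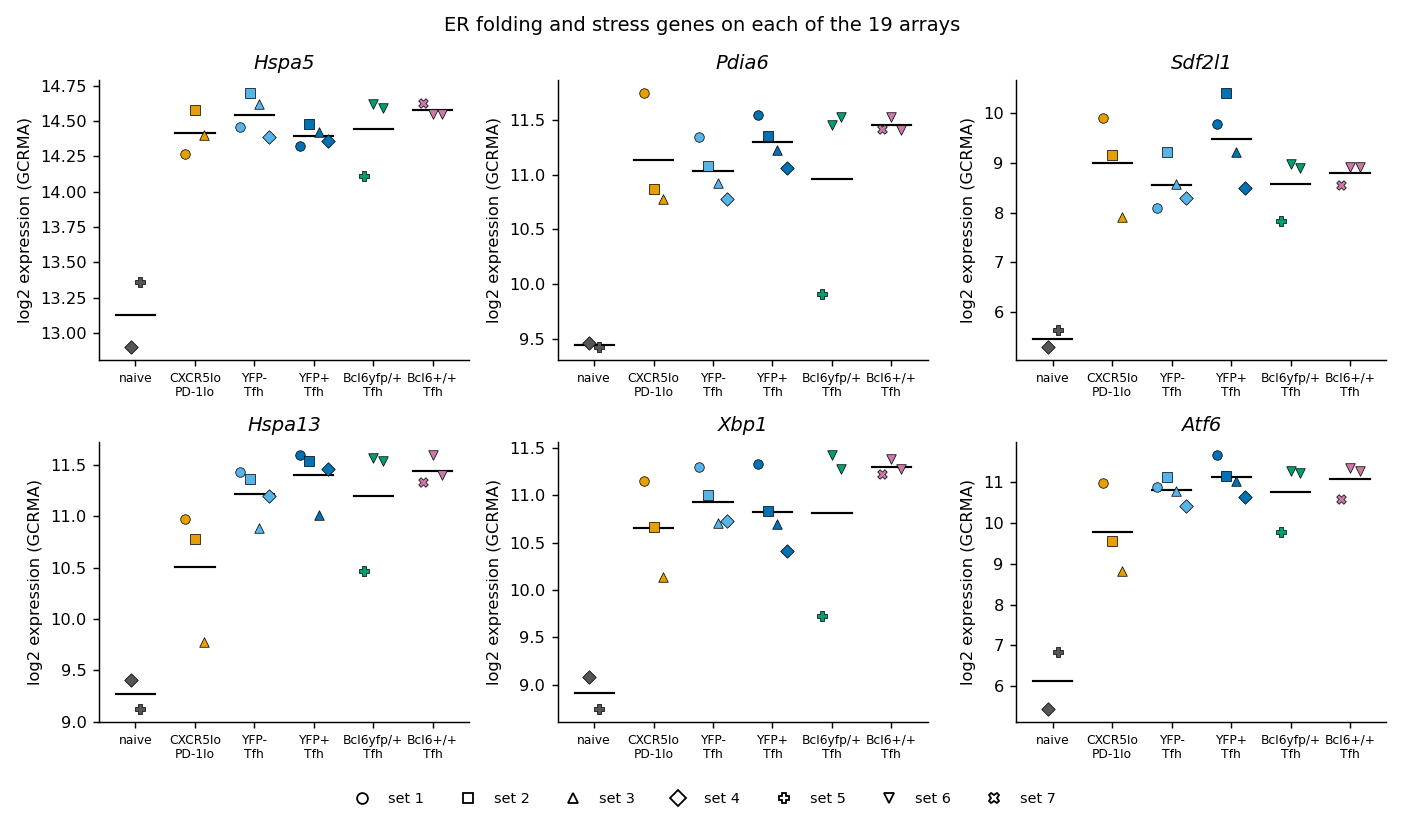
Log2 expression of 6 ER members (vertical axes, each with its own range) on all 19 arrays by group. Each point is an array, its shape marks the set of arrays with a shared value distribution, and black lines are group means; the 2 naive arrays lie below every other array in all 6 panels, and the cross in the Bcl6yfp/+ group is replicate 1.

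Of the lumenal HSP70 proteins, Hspa5 rose in all 4 comparisons. BiP mRNA was at 12.90 and 13.36 in naive cells, at 14.27, 14.40 and 14.58 in CXCR5lo PD-1lo cells, at 14.39, 14.46, 14.62 and 14.70 in YFP-negative and at 14.32, 14.36, 14.42 and 14.48 in YFP-positive Tfh cells, at 14.11, 14.59 and 14.62 in Bcl6yfp/+ and at 14.55, 14.55 and 14.63 in Bcl6+/+ Tfh cells. The 17 arrays of immunized mice lay within 14.11 to 14.70. The log2 difference was 1.27 (2.41-fold, SE 0.20, adjusted p 0.00021), 1.41, 1.29 and 1.38. Hspa13, an HSP70 relative anchored in microsomes, was at 9.12 and 9.41 in naive cells and at 9.78 to 11.60 elsewhere, and it rose by 2.14 (SE 0.35, adjusted p 0.00021), 1.96, 1.24 and 2.06. Hyou1, a nucleotide exchange factor for BiP, was at 8.23 and 9.24 in naive cells, and every group but Bcl6+/+ Tfh cells reached down to the higher of these. It was called in unsplit Tfh cells, where replicates 2 and 3 of both genotypes were at 10.66 to 10.84, but its sign turned with the set of arrays as a fixed block.

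Of the partners of BiP, 2 rose in all 4 comparisons. Sdf2l1, which works with BiP and ERdj3, was at 5.30 and 5.65 in naive cells, at 7.92, 9.15 and 9.90 in CXCR5lo PD-1lo cells, at 8.09, 8.29, 8.58 and 9.22 in YFP-negative and at 8.50, 9.22, 9.77 and 10.40 in YFP-positive Tfh cells, at 7.83, 8.90 and 8.97 in Bcl6yfp/+ and at 8.55, 8.92 and 8.92 in Bcl6+/+ Tfh cells. Its lowest array of immunized mice was above both naive arrays by more than the range within naive cells. It rose by 4 (16-fold, SE 0.54, adjusted p 3.1e-05), 3.07, 3.51 and 3.21. Dnajb11, which encodes ERdj3, rose by 1.17 (SE 0.33, adjusted p 0.015), 1.13, 1.30 and 1.02. In the last comparison the groups overlapped, with Bcl6yfp/+ replicate 1 at 10.51 and the naive arrays at 10.37 and 10.62. Within set 5 the difference was 0.15. Dnajb9 (ERdj4), a J-domain protein that represses IRE1, was called in YFP-negative Tfh cells, by 0.81 (SE 0.27, adjusted p 0.042), and in unsplit Tfh cells, by 1.17. Dnajc3 (p58IPK) was not called in any of the 4 comparisons, with means of 12.33 in naive and 12.60 to 13.07 in the other groups.

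Oxidative folding genes split. Pdia6, a disulphide isomerase that also binds IRE1, was at 9.42 and 9.46 in naive cells and at 9.91 to 11.75 elsewhere, and it rose by 1.86 (SE 0.38, adjusted p 0.0015), 1.59, 1.69 and 1.77. P4hb, the classical disulphide isomerase, rose in unsplit Tfh cells, by 0.94 (SE 0.30, adjusted p 0.023), and was not called in the other 3 comparisons. Pdia3, the isomerase of glycoproteins, was not called in any, with means of 12.55 in naive and 13.19 to 13.52 in the other groups. Pdia4 was near the floor, between 3.19 and 5.36 on 16 of 19 arrays and at 6.66, 6.70 and 7.09 on the arrays of set 2, so its level followed the set of arrays and not the group.

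Creld2, a secreted ER stress protein, rose by 1.70 (SE 0.33, adjusted p 0.001), 1.57, 1.53 and 1.36, from 9.37 and 9.62 in naive cells. Manf, another, rose in YFP-positive Tfh cells by 1.12 (SE 0.36, adjusted p 0.03) and in unsplit Tfh cells by 0.94. In unsplit Tfh cells alone, calls were also made for Herpud1, an adaptor of ER-associated degradation (0.90), Sec61b, a subunit of the translocon (1.07), and Ssr1, a translocon-associated protein (0.87). The groups overlapped for Sec61b and Ssr1, as they did for Dnajb11, P4hb and Manf in unsplit Tfh cells. Whether the groups of immunized mice differed from each other in Herpud1, Sec61b, Ssr1, P4hb or Manf is not shown by a call in 1 comparison. The glycoprotein chaperones Calr and Canx and the ER HSP90 Hsp90b1 were not called in any comparison, with differences from naive that were positive in all 4.

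**Figure D2:**
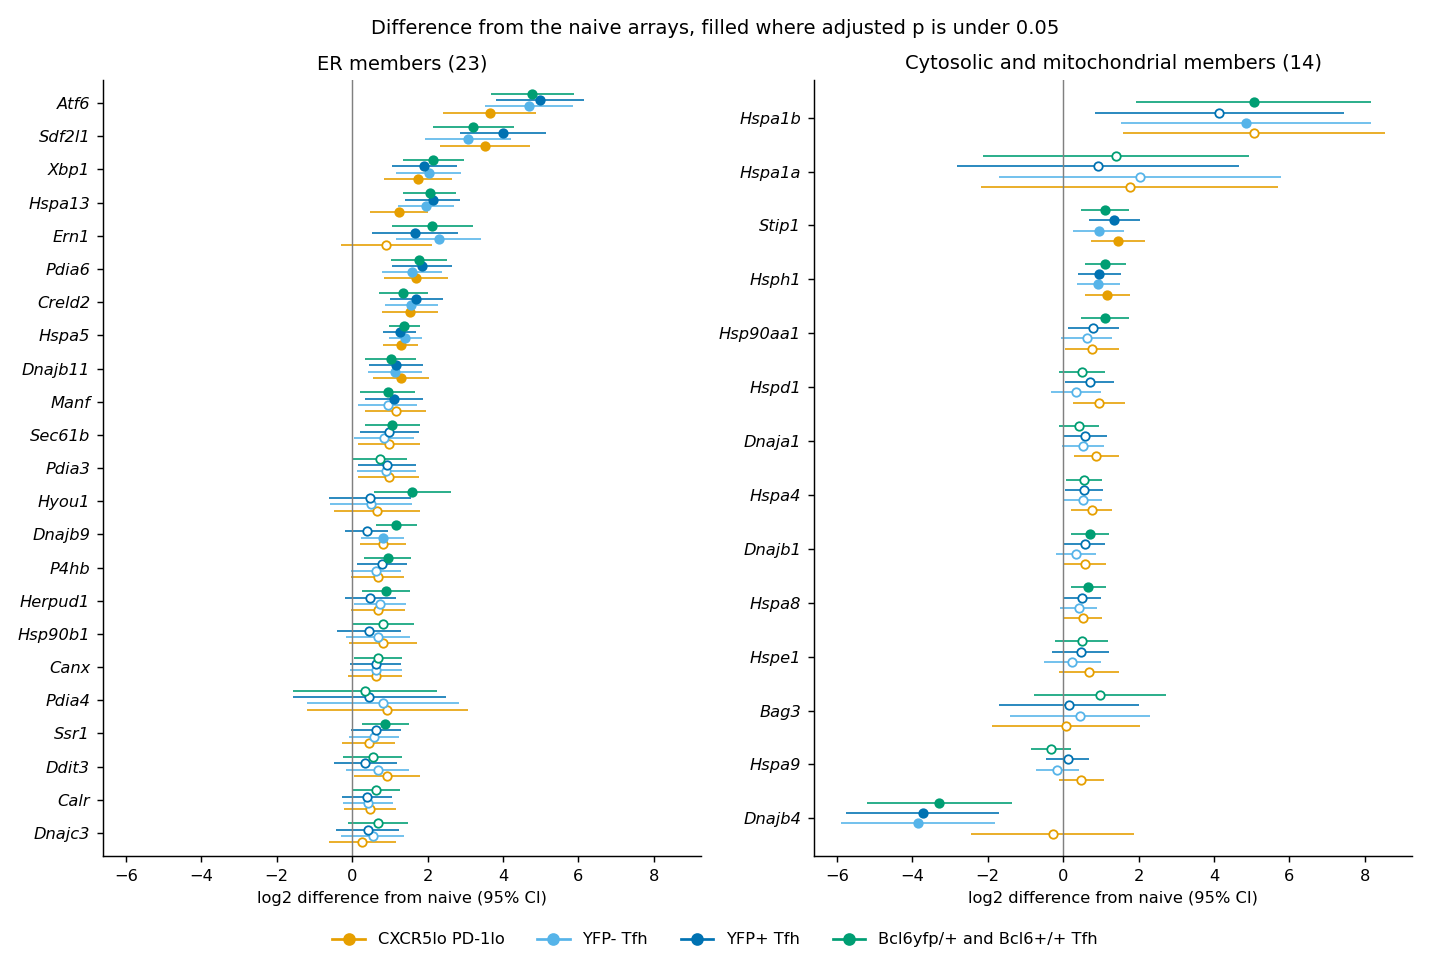
Log2 difference of 37 members from the naive arrays (horizontal axis) with 95% confidence intervals, by comparison (colour), for ER members (left) and cytosolic or mitochondrial members (right). Filled points have an adjusted p under 0.05; all 23 ER members lie to the right of 0 in all 4 comparisons, and Dnajb4 lies far to the left in the 3 Tfh comparisons.

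Members with and without a match to the ER stress element as written above were counted apart, and other spellings of it were not searched. In YFP-positive Tfh cells 3 of the 7 ER members with a match rose (Hspa5, Pdia6 and Creld2) and 4 of the 12 with a promoter window but no match, with median differences of 0.62 and 0.86. In unsplit Tfh cells the counts were 3 of 7 and 9 of 12, with medians of 0.83 and 0.98. In YFP-negative Tfh cells they were 3 of 7 and 5 of 12, with medians of 0.68 and 0.84. In CXCR5lo PD-1lo cells they were 3 of 7 and 3 of 12, with medians of 0.82 and 0.92. Of all genes, 22.4%, 28.4%, 16.5% and 10.3% rose in these comparisons, in the order given here.

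The size of these differences depended on how the arrays were scaled. The median of all genes was 0.38 to 0.50 above naive as deposited, and went to between -0.08 and 0.07 with all 19 arrays quantile-normalized together. With that scaling the share of calls that were higher than naive went from 77.7% to 46.1% in YFP-positive Tfh, from 78.1% to 45.2% in YFP-negative Tfh, from 86.8% to 46.2% in CXCR5lo PD-1lo and from 82.8% to 59.8% in unsplit Tfh cells. With the median of the kept genes set equal these shares were 44.3%, 48.1%, 51.5% and 44.8%, with the set of arrays as a fixed block 53.3%, 53.6%, 59.2% and 49.0%, and with it as a random block 55.6%, 55.3%, 62.5% and 57.0%. The ER median stayed above the median of all genes: it was 0.53, 0.43, 0.40 and 0.49 with quantile normalization, beside -0.07, -0.08, -0.08 and 0.07 over all genes. Of the ER members that rose, 9 of 10 in YFP-positive Tfh, 9 of 10 in YFP-negative Tfh, 6 of 8 in CXCR5lo PD-1lo and 5 of 16 in unsplit Tfh cells were also called under each of 4 other scalings. The 5 were Hspa5, Hspa13, Xbp1, Ern1 and Atf6.

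Arrays of 1 set can be compared without that offset. In set 4, 21 of 23 ER members were higher in YFP-positive Tfh replicate 4 than in naive replicate 1, with a median difference of 0.64 beside 0.02 for all genes, and 22 of 23 were higher in YFP-negative Tfh replicate 4, with a median of 0.60. In set 5, 18 of 23 were higher in Bcl6yfp/+ replicate 1 than in naive replicate 2, with a median of 0.43 beside 0 for all genes. Atf6 was 5.20 and 5 higher in set 4 and 2.94 higher in set 5, Xbp1 1.33 and 1.65 and then 0.99 higher, and Hspa5 1.46 and 1.49 and then 0.75 higher. Pairs of single arrays have no replicate check.

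**Figure D3:**
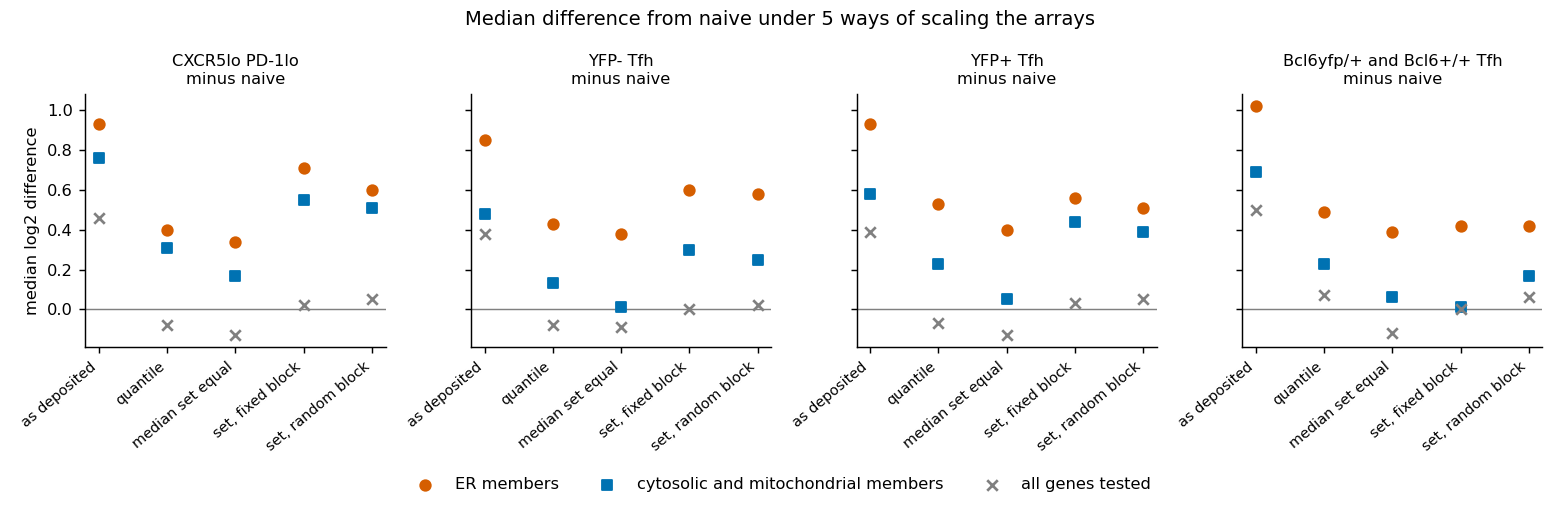
Median log2 difference from naive (vertical axis) over the ER members, the cytosolic or mitochondrial members and all genes tested, as deposited and under 4 other scalings, by comparison. The grey crosses drop to about 0 under the other scalings, the ER medians stay between 0.34 and 0.71, and the cytosolic medians reach 0.01 in 2 comparisons.

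The number of calls depended on each naive array. Without naive replicate 1 the count of members called fell from 13 to 8 in YFP-positive Tfh, from 14 to 8 in YFP-negative Tfh, from 10 to 4 in CXCR5lo PD-1lo and from 23 to 11 in unsplit Tfh cells, and all that were left were ER members. Without naive replicate 2 the counts were 11, 9, 7 and 14. Without CXCR5lo PD-1lo replicate 1, which was high for Atf6, Pdia6 and Creld2, the count in those cells was 6. Without Bcl6yfp/+ replicate 1 the count in unsplit Tfh cells rose to 32. Shares of all genes called in these fits are not given here. Whether the members, or the ER members that were left, changed more than other genes is therefore not shown.

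Genes of other cells moved with some of these arrays. Of the 5 plasma cell markers that passed the filter, the immunoglobulin chain genes Jchain and Iglv1 were high on the CXCR5lo PD-1lo arrays (7.72 to 10.53 and 9.60 to 10.75), on YFP-positive replicate 1 (8.45 and 10.01), YFP-negative replicate 1 (12.42 and 13.81) and Bcl6yfp/+ replicate 1 (7.54 and 8.96), and at 2.20 to 3.06 and 2.11 to 2.21 on the other 6 arrays sorted by YFP. The summed level of the list (log2 of the sum) was 7.97 to 9.01 in naive cells, 13.84 to 14.13 in CXCR5lo PD-1lo cells and 12.32 to 14.67 in Tfh cells sorted by YFP. The highest of these was YFP-negative replicate 1, with its immunoglobulin signal. Irf4, which activated T cells also express, was at 12 to 14.04 on all arrays of immunized mice and at 7.25 and 8.06 on the naive arrays. Of the defining markers, Sdc1 was between 2.25 and 6.54 and Prdm1 between 2.11 and 4.36 on the Tfh arrays. Their levels on the CXCR5lo PD-1lo arrays are not given here. Of the 9 measured plasma cell markers, 3 had a mean of 8 or more in CXCR5lo PD-1lo cells, 1 in each Tfh group and 0 in naive cells. Relative to CXCR5lo PD-1lo cells the median over the 5 markers was -3.7 in YFP-positive and -3.57 in YFP-negative Tfh cells. In each comparison 2 were called lower and 1 had a higher mean. More plasma cells and more of these mRNAs per cell cannot be told apart in sorted bulk samples. Without replicate 1 the ER median above naive was 0.89 in YFP-positive and 0.78 in YFP-negative Tfh cells, and 8 ER members were called in each. The share of all genes called without that replicate is not given here. For CXCR5lo PD-1lo cells, all 3 arrays of which carried these genes, the part of plasma cell RNA in the ER difference was not tested.

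Other genes of the ER were counted from a separate list. In the same order as above, 22.4%, 16.5%, 10.3% and 28.4% of all genes rose, with medians of 0.39, 0.38, 0.46 and 0.5. Of 48 other genes of ER translocation, glycosylation, folding and degradation, 20 rose and 0 fell in YFP-positive Tfh, 14 and 0 in YFP-negative Tfh, 9 and 0 in CXCR5lo PD-1lo and 24 and 0 in unsplit Tfh cells, with medians of 0.76, 0.74, 0.78 and 0.74. In YFP-positive Tfh cells the 3 largest were Dnajc1 (1.93, adjusted p 0.00015), a J-domain protein of the ER membrane, Fkbp2 (1.91), a prolyl isomerase, and Edem1 (1.71), which directs glycoproteins to degradation. Of 19 other stress response genes 3 rose in YFP-positive Tfh cells, where 22.4% of all genes rose. They were Hmox1, the haem oxygenase (6.42, adjusted p 7.4e-05), Creb3l2, an ER-bound transcription factor (2.17), and Ppp1r15a, which restores translation after stress (1.61).

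Which cytosolic and mitochondrial chaperones were called against naive cells depended on the scaling. Of the 14, 2 rose and 1 fell in YFP-positive Tfh cells, 3 rose and 1 fell in YFP-negative Tfh cells, 2 rose in CXCR5lo PD-1lo cells and 6 rose and 1 fell in unsplit Tfh cells, beside 22.4%, 16.5%, 10.3% and 28.4% of all genes that rose. The medians were 0.58, 0.48, 0.76 and 0.69 as deposited and 0.23, 0.13, 0.31 and 0.23 with quantile normalization. In set 4 the medians over these genes were 0.39 and 0.34, and in set 5 the median was 0, with 7 of 14 higher.

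Stip1, the co-chaperone HOP that hands clients from HSP70 to HSP90, was at 10.24 and 10.77 in naive cells, at 11.84, 11.96 and 12.08 in CXCR5lo PD-1lo cells, at 11.18, 11.37, 11.59 and 11.63 in YFP-negative and at 11.43, 11.97, 12.02 and 12.03 in YFP-positive Tfh cells, at 10.73, 11.92 and 11.97 in Bcl6yfp/+ and at 11.33, 11.78 and 11.95 in Bcl6+/+ Tfh cells. Only Bcl6yfp/+ replicate 1 overlapped naive. Stip1 rose by 1.36 (SE 0.32, adjusted p 0.0048) in YFP-positive Tfh, 0.94 in YFP-negative Tfh, 1.45 in CXCR5lo PD-1lo and 1.11 in unsplit Tfh cells. The last difference was -0.08 with the set of arrays as a fixed block. Hsph1 (HSP105), a nucleotide exchange factor of the HSP70 family, was at 12.83 and 14 in naive cells and at 14.13 to 14.71 elsewhere. It rose in all 4 comparisons, by 0.96 (SE 0.27, adjusted p 0.014), 0.93, 1.17 and 1.12, and in none of them without naive replicate 1.

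In unsplit Tfh cells alone, calls were also made for Hsp90aa1, the inducible HSP90 (1.12, SE 0.30, adjusted p 0.01), Hspa8, the constitutive HSP70 (0.67), and Dnajb1, the J-domain partner HSP40 (0.71). None of the 7 calls in unsplit Tfh cells held under all 4 other scalings, and that of Dnajb1 turned to -0.05 with the set of arrays as a fixed block. The mitochondrial chaperones Hspd1, Hspe1 and Hspa9 (mortalin), as well as Hspa4, Dnaja1 and Bag3, were not called against naive in any of the 4 comparisons.

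The stress-inducible HSP70 genes were split between the naive arrays. Hspa1b was at 3.65 on naive replicate 1 and at 12.68 on naive replicate 2, and between 10.83 and 14.13 on all arrays of immunized mice. The other 2 probe sets showed the same gap, with 2.25 against 9.21 and 2.14 against 8.12. Hspa1b was called in YFP-negative Tfh (4.84, SE 1.56, adjusted p 0.036) and unsplit Tfh cells (5.05), and without naive replicate 1 the differences were 0.33 and 0.53 and not called. Hspa1a lay between 2.22 and 9.40 and was not called. Hspa1a and Hspa1b are near-identical neighbouring copies, so that the signals of both cannot be told apart and both values are uncertain.

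**Figure D4:**
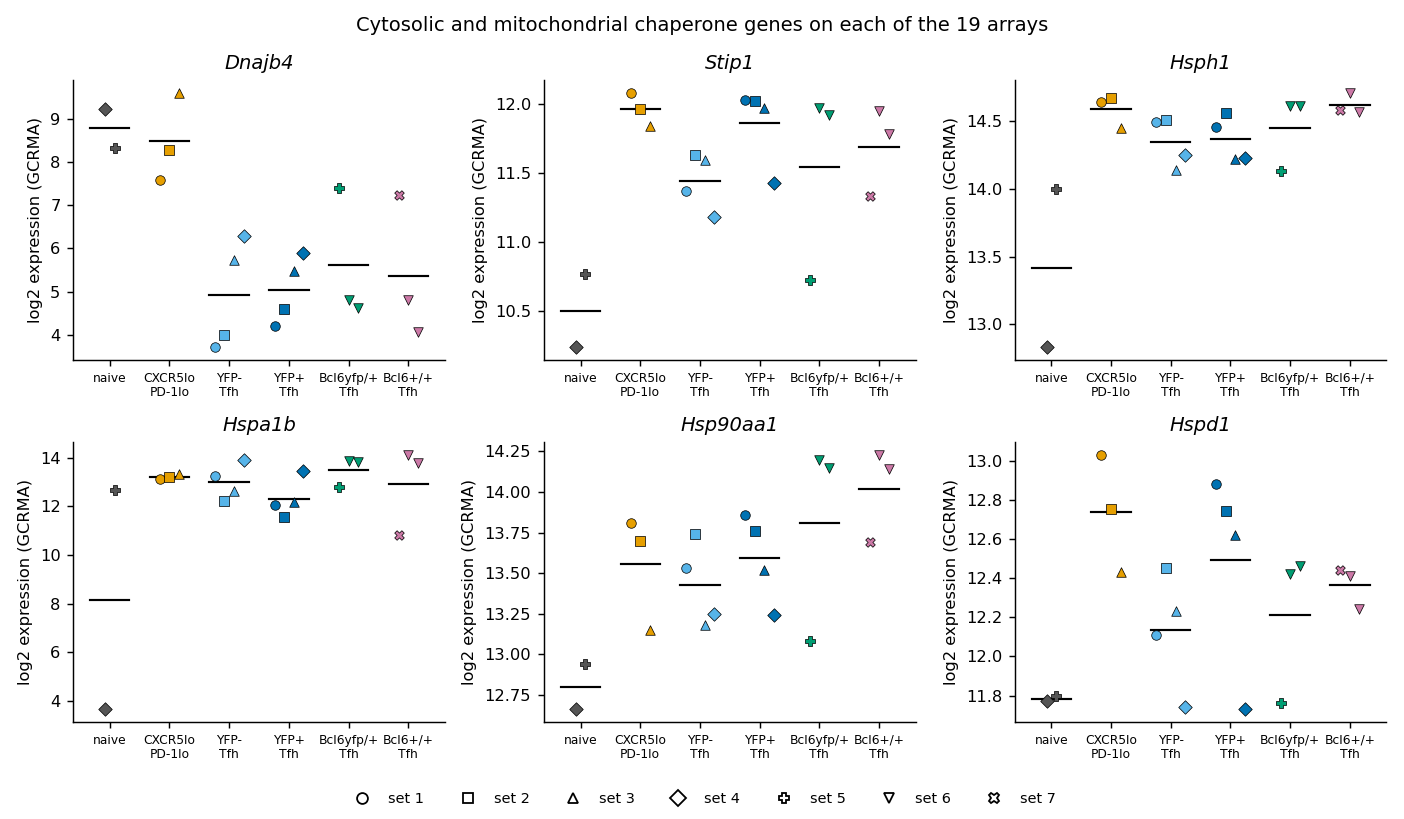
Log2 expression of 6 cytosolic or mitochondrial members (vertical axes, each with its own range) on all 19 arrays by group, with shapes for the set of arrays and black lines for group means. Dnajb4 is high in naive and CXCR5lo PD-1lo cells, Hspa1b is near the floor on 1 of 2 naive arrays, and the cross in the Bcl6yfp/+ group, replicate 1, lies near the naive values of Stip1, Hsp90aa1 and Hspd1.

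The comparison of Tfh with CXCR5lo PD-1lo cells, both from the lymph nodes of immunized mice, asks which members differ between Tfh cells and other activated cells. Dnajb4, a J-domain partner of HSP70, was the member that fell in both YFP-sorted Tfh groups, and 0 members rose. No ER member was called in limma, and the median ER differences were 0.01 in YFP-positive and -0.04 in YFP-negative Tfh cells. An unadjusted p under 0.05 in limma was found for 2 of 23 and 3 of 23, beside 2156 and 1597 of all 9928 genes. Among all genes, 5.17% rose and 5.39% fell in YFP-positive and 3.13% rose and 3.39% fell in YFP-negative Tfh cells. These comparisons share the 3 CXCR5lo PD-1lo arrays.

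Dnajb4 was at 7.59, 8.28 and 9.60 in CXCR5lo PD-1lo cells, at 3.71, 3.99, 5.73 and 6.28 in YFP-negative and at 4.21, 4.59, 5.47 and 5.90 in YFP-positive Tfh cells, at 4.63, 4.81 and 7.39 in Bcl6yfp/+ and at 4.06, 4.81 and 7.24 in Bcl6+/+ Tfh cells, and at 8.33 and 9.22 in naive cells. The YFP-sorted Tfh arrays did not overlap CXCR5lo PD-1lo or naive cells, and replicate 1 of each genotype stood above the other unsplit Tfh arrays. Dnajb4 fell by 3.45 in YFP-positive Tfh (10.9-fold, SE 0.85, adjusted p 0.014) and by 3.56 in YFP-negative Tfh cells (11.8-fold, adjusted p 0.016) relative to CXCR5lo PD-1lo cells, and by 3.73, 3.85 and 3.28 in YFP-positive, YFP-negative and unsplit Tfh cells relative to naive cells. Between CXCR5lo PD-1lo and naive cells the difference was -0.28 and not called.

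In each of sets 1, 2 and 3 Dnajb4 was lower in Tfh cells, with differences of -4.13 to -3.38 in YFP-positive and -4.30 to -3.87 in YFP-negative cells. YFP-negative replicate 1 was of day 10 and the other arrays of these sets of day 7. The call against CXCR5lo PD-1lo cells was lost without CXCR5lo PD-1lo replicate 3 for YFP-positive cells, and without that array, CXCR5lo PD-1lo replicate 2 or YFP-negative replicate 1 for YFP-negative cells. Without CXCR5lo PD-1lo replicate 1 the counts of called members rose to 3 and 2, and without YFP-negative replicate 3 the second count rose to 2. Counts over all genes without these arrays are not given here. With the mean of all 3 probe sets of the gene the differences from CXCR5lo PD-1lo cells were -2.14 (adjusted p 0.1) and -1.88 (adjusted p 0.22), and neither was called, nor were those of YFP-negative and unsplit Tfh from naive cells. A second probe set of Dnajb4 differed by -3 between YFP-positive and CXCR5lo PD-1lo cells and was not called, with 3.05 on CXCR5lo PD-1lo replicate 1, and another was at the floor on all arrays. Klrd1, an NK cell and effector T cell receptor in the list of 3 CD8 and NK markers that passed the filter, was high on the same groups. It was at 10.16 to 11.32 in CXCR5lo PD-1lo cells, 9.81 and 11.45 in naive cells and 2.03 to 4.95 on all Tfh arrays. The list as a whole shared only part of this order. Relative to CXCR5lo PD-1lo cells 2 of the 3 markers were called lower in each YFP-sorted Tfh group. Relative to naive cells 1 of the 3 was called lower in each Tfh comparison. The list medians against naive were -0.19 (YFP-positive), -0.06 (YFP-negative) and -0.91 (unsplit). Cd8a was at the floor on all arrays, between 2.17 and 2.41, and the part of CD8 or NK cells in the Dnajb4 level was not tested.

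Same-numbered arrays of these groups deviated together, so the replicate number was also fitted as a block. Arrays of 1 number also shared a set, and YFP-negative replicate 1 was of day 10 beside day 7 arrays. Pairing of samples and the set of arrays therefore cannot be told apart in this fit. That raised the members called from 1 to 4 in YFP-positive Tfh cells, where 12.4% of all genes then rose and 10.8% fell, and from 1 to 5 in YFP-negative Tfh cells, where 6.68% rose and 6.45% fell. Dnajb4 fell by 3.82 and 3.93 in this fit. Hspa13 rose by 0.89 (adjusted p 0.01) and 0.71 (adjusted p 0.041) and Atf6 by 1.49 (adjusted p 0.011) and 1.18 (adjusted p 0.044), in YFP-positive and YFP-negative Tfh cells. Hspa1b fell by 1.26 in YFP-positive cells (adjusted p 0.035), Ern1 rose by 1.23 in YFP-negative cells (adjusted p 0.015) and Hspa9 fell by 0.44 in YFP-negative cells (adjusted p 0.033).

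Hspa13 was higher in Tfh cells in each of the 3 sets, by 0.64, 0.76 and 1.23 in YFP-positive and by 0.46, 0.59 and 1.11 in YFP-negative cells. Another of its 4 probe sets differed by 2.28 between YFP-positive and CXCR5lo PD-1lo cells and was called without the block (adjusted p 0.0056 over all probe sets). That probe set was not higher in unsplit Tfh cells. It was at 3.29 to 3.63 in Bcl6yfp/+ and 3.29 to 4.72 in Bcl6+/+ cells, beside 4.15 to 5.43 in CXCR5lo PD-1lo cells. Atf6 was 0.70, 1.6 and 2.22 higher in YFP-positive cells, but in YFP-negative cells it was 0.10 lower in set 1 and 1.6 and 1.97 higher in the others. In set 1 the YFP-negative array was of day 10 and the CXCR5lo PD-1lo array of day 7. Ern1 was 1.13, 1.54 and 1.22 higher in YFP-negative cells and -0.07, 0.87 and 0.80 in YFP-positive cells. Hspa5, by contrast, was not called with or without the block: it differed by -0.02 (95% CI -0.40 to 0.36) and 0.13 (-0.26 to 0.51) between the YFP-positive or YFP-negative Tfh and the CXCR5lo PD-1lo cells.

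**Figure D5:**
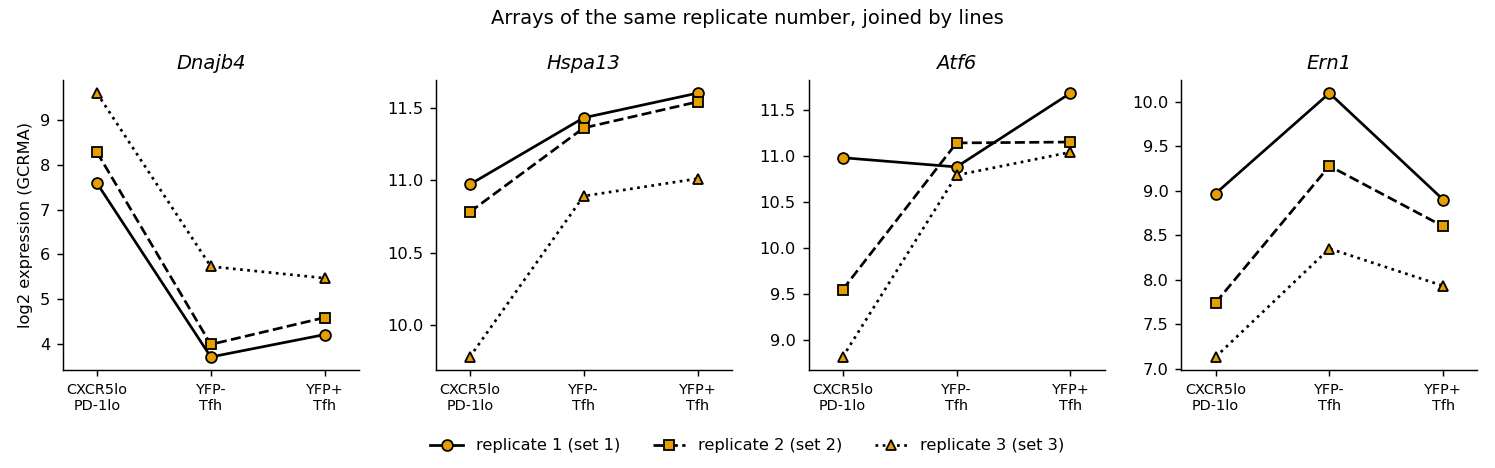
Log2 expression of Dnajb4, Hspa13, Atf6 and Ern1 (vertical axes, each with its own range) in CXCR5lo PD-1lo, YFP-negative and YFP-positive cells, with a line for each replicate number. Dnajb4 falls and Hspa13 rises from CXCR5lo PD-1lo to both Tfh groups along all 3 lines, and Atf6 does not rise in YFP-negative cells along the line of replicate 1. YFP-negative replicate 1 is of day 10 and the other arrays shown of day 7.

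BCL6-YFP-positive and BCL6-YFP-negative Tfh cells, which the reporter divides by their level of BCL6, the factor that Tfh cells require, did not differ in a member past the threshold. No member was called in limma, with or without the replicate block, where 12 of all genes (0.121%) were called without the block. An unadjusted p under 0.05 without the block was found for 1 of 37 members, beside 786 of all 9928 genes. The smallest p belonged to Sdf2l1, which was 0.93 higher in YFP-positive cells (SE 0.44, 95% CI 0.00 to 1.86, adjusted p 0.63), with overlapping groups. Compared within sets 1, 2, 3 and 4, which here are the pairs of equal replicate number, Sdf2l1 was 1.68, 1.18, 0.64 and 0.21 higher. Ern1 was lower in YFP-positive cells in all 4, with differences of -1.20, -0.67, -0.42 and -0.21. The set 1 pair, with the largest difference for both genes, joined a day 7 YFP-positive and a day 10 YFP-negative array. The difference of Hspa5 was -0.15 (95% CI -0.50 to 0.21) and that of Xbp1 -0.12 (-0.82 to 0.58). The median difference was -0.01 over the ER members and 0.11 over the cytosolic or mitochondrial ones. In the same comparison all 30 cell cycle genes were higher in YFP-positive cells, with a median of 2.87, none called and 28 with an unadjusted p under 0.05. With the set of arrays as a fixed block Stip1 was called, 0.42 higher in YFP-positive cells (adjusted p 0.02), as were Hspa9 (0.28) and Hspa1b (-0.70), 3 of 37 members where 15.6% of all genes were called. With it as a random block 6 members were called where 20.7% of all genes were: Stip1, Hspa9, Hspd1 and Sdf2l1 were higher and Ern1 and Dnajb9 lower in YFP-positive cells.

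The comparison of Bcl6 genotypes asks whether cells with and without the reporter allele differ in the members, and no member was called. All Bcl6yfp/+ arrays were of day 7 and Bcl6+/+ replicates 1 and 2 of day 10, so genotype and day cannot be fully told apart. Between Bcl6yfp/+ and Bcl6+/+ Tfh cells 0 of 37 members and 0 of all genes (0%) were called in limma. An unadjusted p under 0.05 was found for 0 members, beside 287 of all 9928 genes. The smallest p belonged to Creld2, at 10.15, 10.81 and 10.85 in Bcl6yfp/+ and 10.83, 10.99 and 11.52 in Bcl6+/+ cells (-0.51, SE 0.31, 95% CI -1.17 to 0.14, adjusted p 0.87). Within set 6 the median difference between the genotypes was 0.02 over the ER members and -0.02 over the cytosolic or mitochondrial ones. Of the arrays of set 6, only Bcl6+/+ replicate 2 was of day 10.

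Day 10 against day 7, fitted as a term beside the groups with 3 groups contributing both days, gave 0 called members in limma where 23 of all genes (0.232%) were called. An unadjusted p under 0.05 was found for 2 members, beside 1010 of all 9928 genes. Hspa9 had the smallest p and was 0.45 lower at day 10 (SE 0.17, 95% CI of the difference -0.82 to -0.09, adjusted p 0.32).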

How the data were processed

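RNA of 19 sorted samples was labelled from amplified cDNA and hybridised to Affymetrix whole-genome mouse arrays. The deposited values are log2 expression per probe set, made with GCRMA per the submitters' processing notes; its version is not given in the sources used here, nor is the way arrays were grouped for it. The medians of the arrays lay between 2.404 and 2.991, and 40.9% to 46.57% of probe sets reached log2 4; the number of arrays limits the precision.

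Of 45101 probe sets, 34945 named 1 gene symbol in the platform annotation, 932 several and 9160 none, with 64 controls left out. Each gene was read from the probe set with the highest mean among those with only its symbol, and 9928 genes at log2 4 or more on 2 arrays were kept. Group means were fitted in limma 3.58.1 (R 4.3.3) over all kept genes, and a call is a Benjamini-Hochberg adjusted p under 0.05. Arrays belong to 1 set where their sorted values differ by less than 0.06 on average (within a set the largest such difference was 0.0483, and across sets the smallest was 0.0666). No 2 columns were identical. The fit was tested on simulated data. Promoter windows are RefSeq's.

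Deviations from the group means of same-numbered samples correlated at 0.27 to 0.87 over 9928 genes. This held among the CXCR5lo PD-1lo and both YFP-sorted Tfh groups and between the Bcl6 genotypes. The replicate number was therefore fitted as a block in 1 alternative. Differently numbered samples were not compared in this way, and same-numbered arrays of the first 3 groups also shared a set. YFP-negative replicate 1 and Bcl6+/+ replicates 1 and 2 were of day 10, and the arrays they were matched with of day 7. The correlations thus do not show that the numbers pair samples, and the labels do not say what the numbers stand for. Other groups were not compared by number. Other scalings, filters, probe set rules, the day, and leaving out each array were tried as alternatives; 3 of these were added after seeing the data (equal medians, replicates 1 of both genotypes left out together, and no day 10 arrays).

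The members and lists were chosen with earlier results of these data known. Fold changes are given for called members, or where over 12 were called for the 6 highest and 6 lowest of each list, for the smallest p where none was called, and for a called member in comparisons that show its pattern. Of other lists, at most the 3 largest called changes in each direction are named. Members and probe sets named otherwise were chosen after their values were seen.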

Additional observations from a re-analysis of the deposited data

Results flagged for a closer look

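Stip1 on YFP-positive Tfh replicate 4 stood apart from its group: it was at 11.43, and the other 3 arrays were between 11.97 and 12.03, a gap of 0.888 of the group's range and past Dixon's 95% critical value for 4 arrays. It was the only such array among 74 tests of 37 members in the 2 groups of 4 arrays, where chance gives about 1 in 20. That array was also the day 10 array of its group and the one in set 4; the part of either was not tested.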

How the results depend on the processing

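Numbers of members called are given as the value under an alternative against the value in the report. With the set of arrays as a fixed block, 19 members differed among the groups against 12. The counts were 3 against 0 between YFP-positive and YFP-negative Tfh cells. They were 8 and 10 against 1 and 1 for YFP-positive and YFP-negative Tfh against CXCR5lo PD-1lo cells. Against naive cells they were 16, 24 and 9 against 10, 13 and 23 for CXCR5lo PD-1lo, YFP-positive Tfh and unsplit Tfh cells. Over all genes the fixed block raised the counts for the 3 comparisons without naive cells from 12, 1048 and 648 to 1545, 4439 and 3026. Among the 6 groups it raised the count over all genes from 2654 to 5507. In the 3 comparisons with naive cells just named, the counts over all genes went from 1183, 2861 and 3407 to 2315, 4661 and 2449. With the set as a random block the member counts, in the order of the fixed block member counts, were 19, 6, 9, 9, 17, 23 and 14. Over all 9928 genes the random block counts were 5786, 2056, 4406, 3070, 2310, 4927 and 3178. Quantile normalization gave 3 and 3 against CXCR5lo PD-1lo cells and 15 for unsplit Tfh, equal medians 3, 3 and 13. Over all genes the counts were 1949, 1226 and 3270 with the first and 1711, 1078 and 3181 with the second. The replicate block gave 4 and 5 against CXCR5lo PD-1lo cells and changed neither count of 0 between Tfh groups. No filter gave 0 for YFP-negative Tfh against CXCR5lo PD-1lo cells; fitting only the groups compared gave 2 for CXCR5lo PD-1lo and 10 for unsplit Tfh against naive cells; leaving out day 10 arrays gave 7 for YFP-negative Tfh, against 14, and 15 for unsplit Tfh. Leaving out single arrays gave 6 to 21 members differing among groups, 0 to 3 and 0 to 2 called against CXCR5lo PD-1lo cells, and 4 to 10, 8 to 15, 8 to 12 and 11 to 32 against naive cells for CXCR5lo PD-1lo, YFP-positive, YFP-negative and unsplit Tfh cells; the counts of 0 for YFP, genotype and day stayed at 0. In unsplit Tfh cells Dnajb1 (-0.05) and Stip1 (-0.08) reversed with the fixed block. The causes were not tested. Where no count or share of all genes is given beside a member count, a change in that count is not a result about the members. Of the 61 named member differences, alternatives kept direction and side of the threshold in 880 cases, lost the call in 211, gained one in 1 and reversed in 2.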

Other observations

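Other chaperones outside the members were called against naive cells about as often as all genes. Of 42 measured above the filter, 4 rose in CXCR5lo PD-1lo, 10 in YFP-positive Tfh, 6 in YFP-negative Tfh and 13 in unsplit Tfh cells, and 0 fell, where 10.3%, 22.4%, 16.5% and 28.4% of all genes rose, with medians of 0.59, 0.49, 0.29 and 0.65. Hspa4l, a relative of the HSP70 exchange factors, rose by 2.68, 2.24, 2.28 and 2.12. Fkbp5, a co-chaperone of HSP90 in steroid receptor complexes, rose by 1.36, 1.91, 1.76 and 1.74. Hspa2, an HSP70 best known from the testis, rose by 2.86 in YFP-positive Tfh cells.

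Against CXCR5lo PD-1lo cells, 5.17% of all genes rose in YFP-positive and 3.13% in YFP-negative Tfh cells. Hmox1, which breaks down haem, was the 1 stress response gene of 19 that rose in Tfh cells against CXCR5lo PD-1lo cells. It was at 3.88, 4.42 and 5.53 in CXCR5lo PD-1lo cells, at 8.05, 8.06, 8.91 and 9.84 in YFP-negative and at 8.76, 9.12, 9.53 and 10.00 in YFP-positive Tfh cells, with differences of 4.11 (adjusted p 0.0044 in limma) and 4.75 (adjusted p 0.00096). Replicate 1 of both genotypes, at 6.21 in Bcl6yfp/+ and 5.22 in Bcl6+/+ cells, lay below the other 4 unsplit Tfh arrays, at 8.74 to 9.21. Immediate early genes, which rise within minutes of stimulation or cell handling, rose in part against naive cells: of 16, 9 rose in CXCR5lo PD-1lo, 7 rose and 1 fell in YFP-positive, 8 rose in YFP-negative and 8 in unsplit Tfh cells. Among all genes 10.3%, 22.4%, 16.5% and 28.4% rose in that order, and 6.44% fell in YFP-positive Tfh cells. The part of handling in the levels of the members was not tested.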
